A study of Rattus norvegicus with 138 samples.

Results

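Expression of 10 genes of the Notch pathway was followed in rat tibialis anterior muscle after volumetric muscle loss (VML), an injury in which a full-thickness piece of muscle is removed. The 10 genes were the receptors Notch1, Notch2 and Notch3, the ligands Dll1, Dll4 and Jag1, the target genes Hes1, Hey1 and Heyl, and Dlk1, a membrane protein related to the Notch ligands. They were taken by symbol from a table of 16181 symbols. All 10 were in the table, and all 10 were among the 11328 genes tested, each with a group mean above 1 TPM, a length-normalised share of a library's transcripts, in at least 1 group.

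Notch signalling passes between touching cells. A ligand of the Delta-like or Jagged family on a cell engages a Notch receptor on its neighbour, the receptor is cut by Adam10 and then by gamma-secretase, and the released intracellular part enters the nucleus, where it joins Rbpj and Mastermind-like proteins on genes such as those of the Hes and Hey families. In skeletal muscle the pathway is known for keeping satellite cells, the muscle stem cells, quiescent and for restraining the differentiation of myoblasts. Dll4 is best known from endothelium and Notch3 from the mural cells around vessels. Dlk1 lacks the domain with which the canonical ligands bind the receptors, and it is known from fetal and regenerating muscle.

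All animals were male inbred Lewis rats of about 4 months of age. The injury was made in the left muscle with a biopsy punch, and the muscle was either left non-repaired or filled with a minced graft (MMG), small pieces made from the tissue that had been cut out of the same rat. Muscles were taken 3, 7, 14 and 28 days post injury (DPI) from rats labelled as running or not running. The labels do not describe the running. The uninjured contralateral muscles were those of injured rats. The control group was 4 muscles, the left and right of only 2 rats, which the labels call sham at day 0 and the study's text calls unoperated, and these rats belong to another numbered rat series than every operated rat. The rat series and the injury therefore cannot be told apart in any comparison with control. For 9 libraries the labels gave no single group and 13 others were dropped for few detected symbols, which left 116 libraries and 114 muscles of 78 rats (76 injured, 34 contralateral, 4 control) in 31 groups. In non-running, non-repaired rats there were 3, 8, 4 and 4 injured muscles at 3, 7, 14 and 28 DPI, and 2, 4, 2 and 2 contralateral muscles.

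The kept libraries had between 7866 and 10948 symbols above 1 TPM, and the 13 dropped libraries had between 901 and 5712. The values are TPM, so the number of reads behind them is unknown. The right muscle of control rat 38 stood apart: it had the fewest symbols above 1 TPM of all kept libraries and the lowest control value of every gene described here except Dlk1. TPM are shares of a whole, and the median log2 fold change of all genes tested in injured over control muscle was 0.96, 0.91, 0.53 and 0.52 at 3, 7, 14 and 28 DPI. After rescaling with median-of-ratios size factors it was 0.09, 0.08, 0.02 and 0.04. Both scales are given for each of the 10 genes against control. These were whole-muscle samples, in which fewer cells of a type and less RNA per cell cannot be told apart.

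In injured non-repaired muscle of non-running rats, 9 of the 10 genes were called higher than in control on at least 1 day, and Dll4 was called on none. Notch2, Notch3, Dll1, Jag1 and Dlk1 were called on all 4 days. A gene was called when its adjusted p in limma was under 0.05 (Benjamini-Hochberg over all genes tested) and its log2(TPM + 1) differed by more than 1. The called genes numbered 8, 9, 6 and 5 of 10 at 3, 7, 14 and 28 DPI, all higher in injured muscle, where 52.6%, 48.1%, 25.5% and 21.3% of all genes tested were called. At 3 and 7 DPI a call was thus common among all genes. The median log2 fold change of the 10 genes was 1.59, 1.69, 1.15 and 0.99, above the all-gene medians given before. Over the 4 days there were 28 calls, and with size factors 13 higher and 1 lower, with Notch2 and Dlk1 called on all 4. Called in the table as a whole were then 41.4%, 36.1%, 21.7% and 14.7%, and the share of all calls that were higher in injured muscle was 59.2%, 60.6%, 72.8% and 78.4%, against 5474 of 5954, 5171 of 5445, 2827 of 2889 and 2386 of 2410 calls on TPM as deposited. Averaging the muscles of each control rat left the count at 28. Without the right muscle of control rat 38 there were 20 calls, and Notch1, Hes1 and Hey1 then had none.

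**Figure D1:**
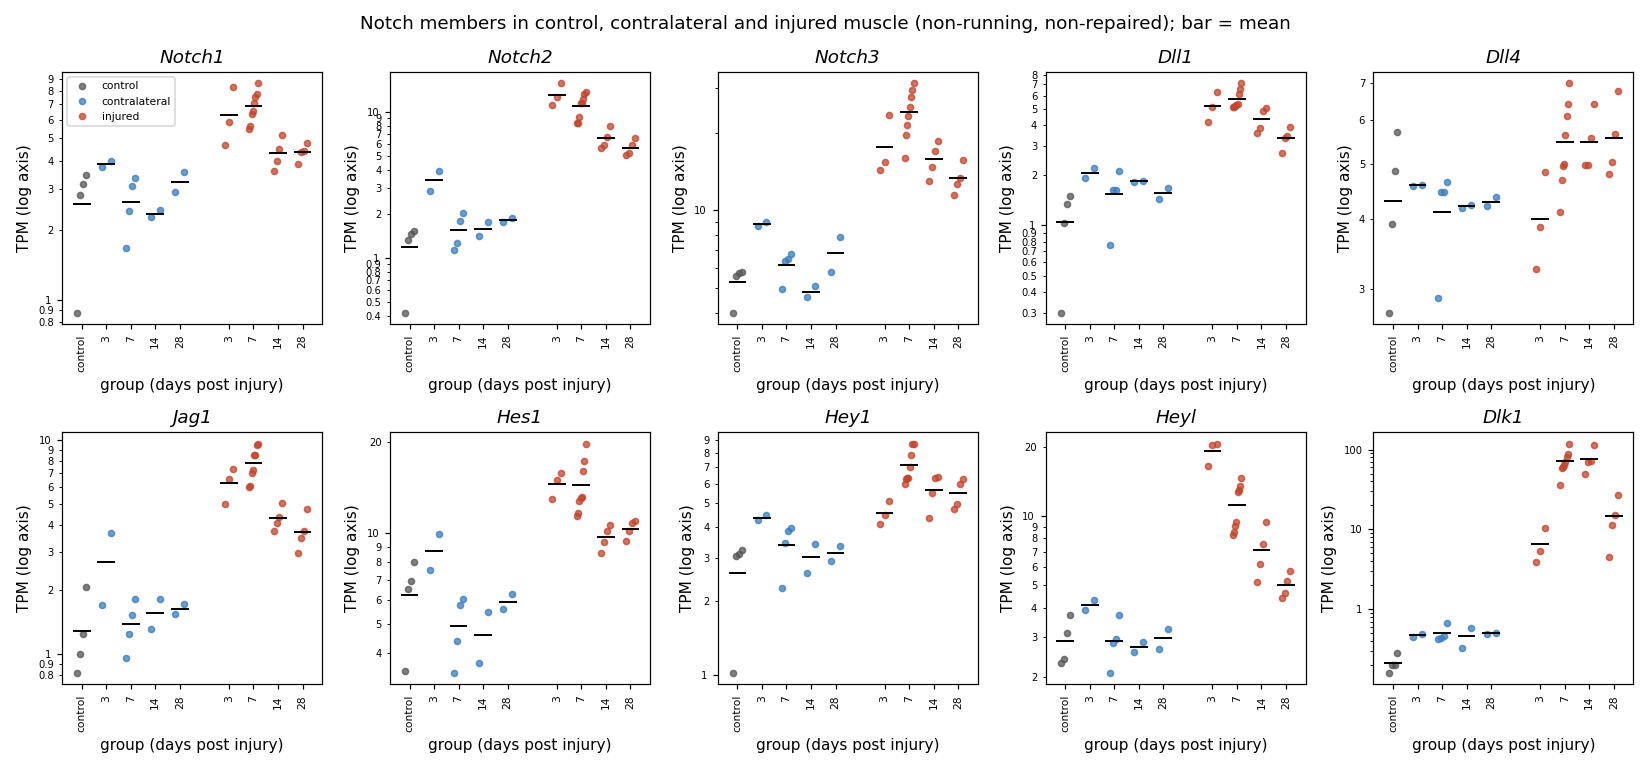
TPM of each of the 10 genes by muscle (log axis) against days post injury, in control, contralateral and injured muscles of non-running, non-repaired rats, with a bar at each group mean. Dlk1 stood between 0.16 and 0.28 TPM in control muscle and between 36.21 and 118.95 TPM in injured muscle at 7 DPI, while the injured and control values of Dll4 overlapped on every day.

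Among the receptors, Notch2 changed most. Notch2 stood at 1.32 and 1.51 TPM in the left and right muscle of control rat 37 and at 1.45 and 0.42 TPM in those of rat 38. At 3 DPI the 3 injured muscles held 12.53, 15.62 and 11.13 TPM of Notch2, a mean of 13.1 ± 2.30 (SD, n = 3) and 11.1-fold the control mean. Every injured muscle was above every control muscle. How many of all genes tested separated from control in this way was not counted, here or for the other members below. The separation is a description only. At 7 DPI the 8 injured muscles ranged from 8.34 to 13.57 TPM of Notch2 with a median of 11.5. At 14 DPI the values were 5.66, 5.94, 8.03 and 6.72 TPM, and at 28 DPI 5.23, 5.90, 5.0 and 6.55 TPM. The level was thus lower at the later times and still above control, 4.83-fold at 28 DPI. On the log2 scale the Notch2 difference was 2.72 (SE 0.186, adjusted p = 3.55e-24), 2.48, 1.83 and 1.65 (SE 0.172, adjusted p = 7.75e-14) at 3, 7, 14 and 28 DPI. It was 1.96, 1.78, 1.48 and 1.32 with size factors.

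Notch3 was the most abundant of the 3 receptors in every group of this arm. Its control values were 5.69, 5.55, 5.77 and 4.01 TPM. The injured muscles held 14.31, 23.43 and 15.44 TPM of Notch3 at 3 DPI and between 16.03 and 31.21 TPM at 7 DPI, with a median of 24.2. At 14 DPI they held 13.01, 14.73, 17.09 and 18.59 TPM, and at 28 DPI 12.73, 13.43, 11.49 and 15.67 TPM. No injured value reached down to the control values. Notch3 rose by a log2 difference of 1.56, 2.0, 1.43 and 1.2, called on all 4 days (adjusted p between 5.25e-21 and 1.54e-08). Under size factors it was 0.53, 1.02, 0.83 and 0.61, called at 7 DPI only.

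Notch1 was at 2.85, 3.48, 3.17 and 0.88 TPM in the control muscles. In injured muscle it was at 4.68, 8.34 and 5.85 TPM at 3 DPI and between 5.48 and 8.64 TPM at 7 DPI, with a median of 6.85. At 14 DPI it was at 3.98, 3.62, 5.15 and 4.47 TPM, and at 28 DPI at 4.77, 4.40, 3.88 and 4.37 TPM. The groups did not overlap on any day, although the lowest injured value at 14 DPI lay close to the highest control value. Notch1 was called at 3 DPI (log2 difference 1.07, SE 0.176, adjusted p = 6.52e-08) and 7 DPI (1.2, SE 0.141, adjusted p = 1.14e-12), and its difference at 14 and 28 DPI was 0.63 and 0.65. Neither call held with size factors (0.21 and 0.38) or without the right muscle of control rat 38 (0.78 and 0.91). Without that muscle the differences at 14 and 28 DPI were 0.34 and 0.36.

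The makeup of the receptor pool does not depend on how libraries are scaled. Notch2 made up 12.4% of the summed TPM of the 3 receptors in control muscle (range 7.91% to 14.3%, n = 4) and 35.7%, 26.1%, 24.6% and 24.3% in injured muscle at 3, 7, 14 and 28 DPI. Notch1 went from 27.3% in control to between 16.1% and 18.7% in injured muscle. Notch3 held the largest share throughout, 60.4% in control and 47.5%, 57.4%, 59.2% and 57% in injured muscle. Because the control muscles came from only 2 rats, the test was made within the 34 rats, of all arms, with both an injured and a contralateral muscle. The injured muscle had a higher Notch2 share in 8 of 8 rats at 3 DPI, by 7.81 percentage points on average (SD 5.70, exact two-sided sign-flip permutation test, p = 0.00781, adjusted p = 0.0125 over 24 tests, those of the 6 receptors and ligands on 4 days). The difference was 9.56 points at 7 DPI (SD 2.36, higher in 14 of 14 rats, exact permutation p = 0.000122, adjusted p = 0.000732) and 8.05 points at 14 DPI (SD 3.84, higher in 8 of 8 rats, adjusted exact permutation p = 0.0125). At 28 DPI it was 11.1 points (SD 3.61) and higher in 4 of 4 rats, where the smallest p that the exact permutation test can give is 0.125. The contralateral muscles of these rats had a mean Notch2 share of 27.8% at 3 DPI and 16.5%, 17.9% and 16.4% at 7, 14 and 28 DPI. The mean at 3 DPI joins unlike rats. In the 4 non-running rats the injured muscle was higher by 8.83, 10.7, 14.2 and 16.6 points, with contralateral shares of 18.7% to 24.9%. In the 4 running rats it was higher by 1.36, 2.46, 3.30 and 4.91 points, with contralateral shares of 31.5% to 35.6%. The running and non-running rats did not overlap in either quantity, and the difference between them was not tested. The Notch1 share was lower in the injured muscle of all 34 rats, by 6.44, 8.89, 8.03 and 8.75 points, with the same adjusted p values by the exact permutation test as for Notch2. Its mean at 3 DPI joins unlike rats too. The Notch1 difference was −6.88, −7.68, −8.81 and −11.1 points in the 4 non-running rats. It was −2.52, −4.28, −4.31 and −5.93 points in the 4 running rats. The Notch3 share differed by −1.37, −0.67, −0.02 and −2.33 points, higher in 5 of 8, 6 of 14, 4 of 8 and 1 of 4 rats, and did not pass the test on any day (adjusted exact permutation p between 0.286 and 0.984). The within-rat test was chosen after the shares were seen, and the shares of a family sum to a whole, so the 24 tests are not independent of each other.

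Of the ligands, Dll1 and Jag1 were called higher on all 4 days and Dll4 was called on none. Dll1, a ligand known from muscle precursor cells, was at 1.04, 1.35, 1.5 and 0.30 TPM in control muscle. It was at 5.1, 6.34 and 4.15 TPM at 3 DPI, between 5.1 and 7.10 TPM (median 5.31) at 7 DPI, at 3.85, 3.56, 5.1 and 4.87 TPM at 14 DPI, and at 3.42, 2.73, 3.35 and 3.90 TPM at 28 DPI. All of these injured values lay above all control values. The log2 difference of Dll1 was 1.63, 1.75, 1.42 and 1.12, called on all 4 days, and 0.94, 1.11, 1.10 and 0.82 with size factors, called at 7 and 14 DPI. Without the right muscle of control rat 38 the difference of Dll1 at 28 DPI was 0.92 and was not called.

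Jag1 was at 1.24, 1.00, 2.06 and 0.82 TPM in control muscle. It was at 6.59, 7.30 and 5.05 TPM at 3 DPI, between 6.04 and 9.61 TPM (median 7.85) at 7 DPI, at 4.08, 3.77, 5.1 and 4.36 TPM at 14 DPI, and at 2.96, 3.47, 3.74 and 4.76 TPM at 28 DPI. Again no injured value fell within the control range. The log2 difference of Jag1 was 1.70, 1.96, 1.25 and 1.07, called on all 4 days, and 0.91, 1.22, 0.85 and 0.68 with size factors, called at 7 DPI only. Without the right muscle of control rat 38 the difference of Jag1 at 28 DPI was 0.97 and was not called.

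Dll4 was the most abundant of the 3 ligands in control muscle, at 4.87, 3.91, 5.71 and 2.72 TPM. It was at 4.84, 3.87 and 3.26 TPM in injured muscle at 3 DPI and between 4.12 and 6.98 TPM (median 5.33) at 7 DPI. At 14 DPI it was at 4.98, 6.41, 5.58 and 4.98 TPM, and at 28 DPI at 5.67, 6.75, 4.8 and 5.05 TPM. Injured and control muscles overlapped on every day. The log2 difference was −0.07 at 3 DPI (95% interval −0.40 to 0.27, adjusted p = 0.723) and 0.31 at 7 DPI (0.04 to 0.58, adjusted p in limma = 0.0281). At 14 DPI it was 0.32 (0.01 to 0.63, adjusted p in limma = 0.0618) and at 28 DPI 0.33 (0.02 to 0.65, adjusted p in limma = 0.0513). These last 3 intervals lay above 0 and under the fold threshold, and the difference at 7 DPI passed the p threshold but was too small to be called. They rested on the control muscle with the lowest Dll4 value, 2.72 TPM. Without that muscle the differences at 7, 14 and 28 DPI were 0.15, 0.16 and 0.17. Their adjusted p in limma was then 0.320, 0.396 and 0.361, so none passed the p threshold. The direction of Dll4 turned with the scaling: with size factors the differences were −1.0, −0.60, −0.26 and −0.23, and the first was called as lower (adjusted p = 6.28e-09).

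Within the ligand pool, Dll4 made up 65.8% of the summed TPM of the 3 ligands in control muscle (range 61.6% to 70.8%, n = 4) and 25.9%, 28.9%, 38.9% and 44.1% in injured muscle at 3, 7, 14 and 28 DPI. Jag1 went from 19.2% in control to 40.7% and 40.9% at 3 and 7 DPI, and Dll1 from 15% to 33.4% and 30.3%. The ligand with the highest level in control muscle was the lowest at 3 DPI. Within rats the Dll4 share was lower in the injured muscle in all 34 rats, by 22.6 points at 3 DPI (SD 6.60, n = 8), 26.5 at 7 DPI (SD 4.88, n = 14), 19 at 14 DPI (SD 6.38, n = 8) and 12.6 at 28 DPI (SD 9.21, n = 4). Leaving out a rat moved the Dll4 difference at 28 DPI between −14.4 and −8.03 points. The adjusted p of the same exact two-sided permutation test was 0.0125, 0.000732 and 0.0125 at 3, 7 and 14 DPI, over the same 24 tests, and the 4 rats at 28 DPI again gave the smallest possible p of 0.125. The Jag1 share was higher in the injured muscle of all 34 rats, by 15.9, 16.2, 10.1 and 4.29 points, and the Dll1 share in 33 of 34, by 6.74, 10.3, 8.96 and 8.34 points, and both passed the exact permutation test at 3, 7 and 14 DPI (adjusted p between 0.000732 and 0.0125).

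**Figure D2:**
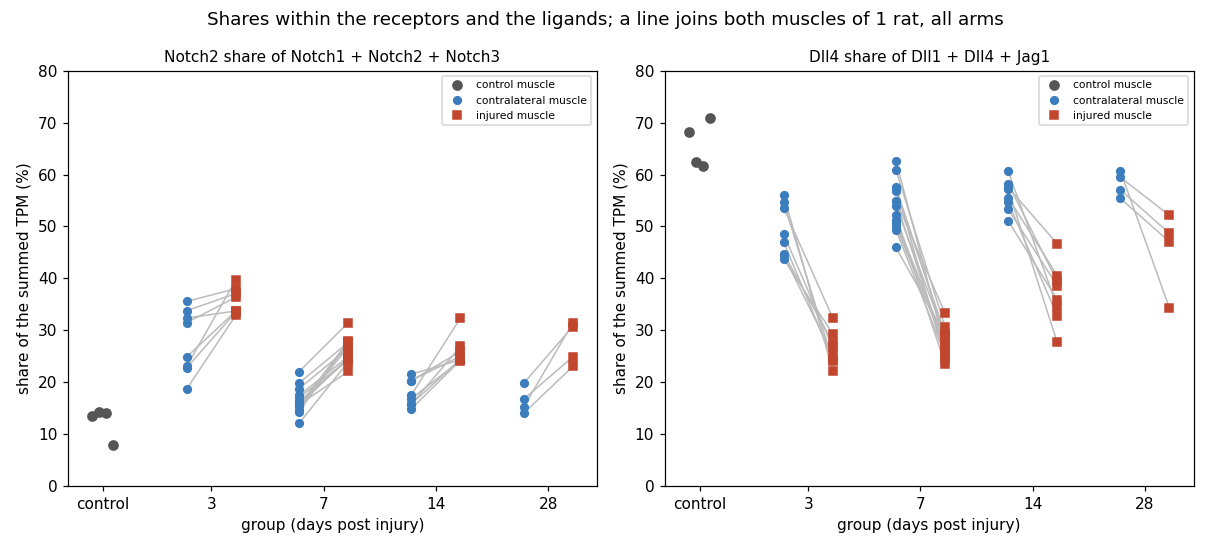
Share (%) of Notch2 in the summed TPM of Notch1, Notch2 and Notch3, and of Dll4 in the summed TPM of Dll1, Dll4 and Jag1, by muscle, against days post injury, for the contralateral and injured muscles of 1 rat joined by a line. The Notch2 share was higher and the Dll4 share lower in the injured muscle of all 34 rats.

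The target genes Heyl, Hes1 and Hey1 were called on 3, 2 and 1 of the 4 days, and with size factors on 1, 0 and 0. Heyl, a Hes-related repressor, was at 3.10, 3.72, 2.41 and 2.31 TPM in control muscle and at 20.41, 20.63 and 16.47 TPM in injured muscle at 3 DPI, where it had the highest level of the 10 genes. It was between 8.30 and 14.68 TPM (median 11.1) at 7 DPI, at 6.18, 5.20, 9.45 and 7.56 TPM at 14 DPI, and at 5.80, 5.24, 4.41 and 4.64 TPM at 28 DPI. All injured values of Heyl lay above the control values, with the gap narrowing by 28 DPI. The log2 difference of Heyl was 2.38 (SE 0.203, adjusted p = 5.8e-19), 1.63, 1.05 and 0.64 at 3, 7, 14 and 28 DPI and was called on the first 3 of these days. With size factors it was 1.42, 0.74, 0.51 and 0.11, called at 3 DPI only. Without the right muscle of control rat 38 it was 0.98 at 14 DPI and was not called there. Between 3 and 7 DPI in injured muscle Heyl differed by −0.75 (SE 0.18, adjusted p = 0.000463), under the fold threshold.

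Hes1, the best known direct target of the pathway, was at 6.95, 7.99, 6.54 and 3.49 TPM in control muscle. Hes1 had the highest level of the 10 genes there. It was at 14.92, 15.83 and 12.94 TPM in injured muscle at 3 DPI and between 11.41 and 19.76 TPM (median 13.1) at 7 DPI. At 14 DPI it was at 9.31, 10.15, 10.59 and 8.60 TPM, and at 28 DPI at 10.99, 10.11, 9.42 and 10.76 TPM. The injured values did not overlap the control values. Hes1 was called at 3 DPI (1.15, SE 0.205) and 7 DPI (1.11, SE 0.164) and not at 14 and 28 DPI (0.60 and 0.69). With size factors the differences were between −0.003 and 0.14 and none was called, and without the right muscle of control rat 38 those at 3 and 7 DPI were 0.93 and 0.90.

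Hey1 was at 3.21, 3.06, 3.09 and 1.02 TPM in control muscle and at 4.11, 4.46 and 5.1 TPM in injured muscle at 3 DPI. It was between 5.98 and 8.73 TPM (median 6.69) at 7 DPI, at 5.52, 4.33, 6.31 and 6.41 TPM at 14 DPI, and at 4.72, 5.96, 4.94 and 6.27 TPM at 28 DPI. Hey1 was called only at 7 DPI (1.23, SE 0.133, adjusted p = 3.73e-14), with 0.68, 0.93 and 0.90 on the other days. With size factors the Hey1 difference was −0.17, 0.40, 0.45 and 0.43, so its direction at 3 DPI turned with the scaling, and without the right muscle of control rat 38 the difference at 7 DPI was 0.97.

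The promoters of Hes1 and Dll1 are shown because they are the members of the group with more than 1 copy of the core of the Rbpj binding motif, TGGGAA. RefSeq promoters (300 bases around the gene's start, most of them before it, in rat build GRCr8, which is not the build used for the values) were at hand for 8 of the 10 genes. TGGGAA was searched on both strands, so that its reverse complement TTCCCA also counts, and the longer TGTGGGAA contains it. In the lines below, read 5′ to 3′ on the gene's strand, capitals mark each match.
Hes1 (chr11:84212996-84213295, minus strand): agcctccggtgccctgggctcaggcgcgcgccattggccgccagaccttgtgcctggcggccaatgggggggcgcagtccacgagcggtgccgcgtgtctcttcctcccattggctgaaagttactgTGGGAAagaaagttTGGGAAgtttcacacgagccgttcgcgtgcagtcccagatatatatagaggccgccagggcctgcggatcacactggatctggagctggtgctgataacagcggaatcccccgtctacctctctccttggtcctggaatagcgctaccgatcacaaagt
Dll1 (chr1:64993225-64993524, minus strand): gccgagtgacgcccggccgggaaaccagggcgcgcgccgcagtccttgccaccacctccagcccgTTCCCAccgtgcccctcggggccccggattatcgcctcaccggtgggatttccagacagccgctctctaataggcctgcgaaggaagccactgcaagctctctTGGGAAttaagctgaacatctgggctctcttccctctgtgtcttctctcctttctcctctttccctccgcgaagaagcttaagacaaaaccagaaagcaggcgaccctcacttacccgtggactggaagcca
The Hes1 matches begin at −123 and −109 from the start, both on the gene's strand, and the first lies in a TGTGGGAA. The Dll1 matches begin at −185, on the opposite strand, and −82. Notch3 had 1 match, and Notch1, Notch2, Jag1, Heyl and Dlk1 had none in this window. Of 33469 rat promoters of the same length, 25.7% held at least 1 TGGGAA, 3.85% held at least 2, and 1.80% held TGTGGGAA. A match describes the letters of the window and is not a measured binding site.

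Dlk1 had the largest log2 difference of the 10 genes from 7 DPI on, and with size factors at 3 DPI as well. It was close to undetected in control muscle, at 0.16, 0.20, 0.20 and 0.28 TPM. It was at 5.36, 10.45 and 3.92 TPM in injured muscle at 3 DPI and between 36.21 and 118.95 TPM at 7 DPI, with a median of 66.3. The level was of the same order at 14 DPI, at 69.22, 71.49, 113.08 and 48.88 TPM, and lower at 28 DPI, at 27.28, 11.37, 4.46 and 15 TPM. The mean at 7 DPI was 72.0 ± 24.5 TPM (SD, n = 8) and at 14 DPI 75.7 ± 26.9 TPM (SD, n = 4). The control mean of 0.21 TPM is too low for a firm fold, so the difference is given on the log2(TPM + 1) scale, which understates the change of low genes. No control or contralateral muscle held more than 1 TPM of Dlk1, so it passed the filter only through injured groups. Its calls as higher in injured muscle are therefore not independent of the filter. Dlk1 rose by 2.55 (SE 0.387, adjusted p = 5.92e-09), 5.84 (SE 0.31, adjusted p = 7.53e-31), 5.92 (SE 0.358, adjusted p = 5.14e-26) and 3.45 (SE 0.358, adjusted p = 6.18e-14). The Dlk1 differences were 2.04, 5.33, 5.80 and 3.34 with size factors, called on all 4 days.

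**Figure D3:**
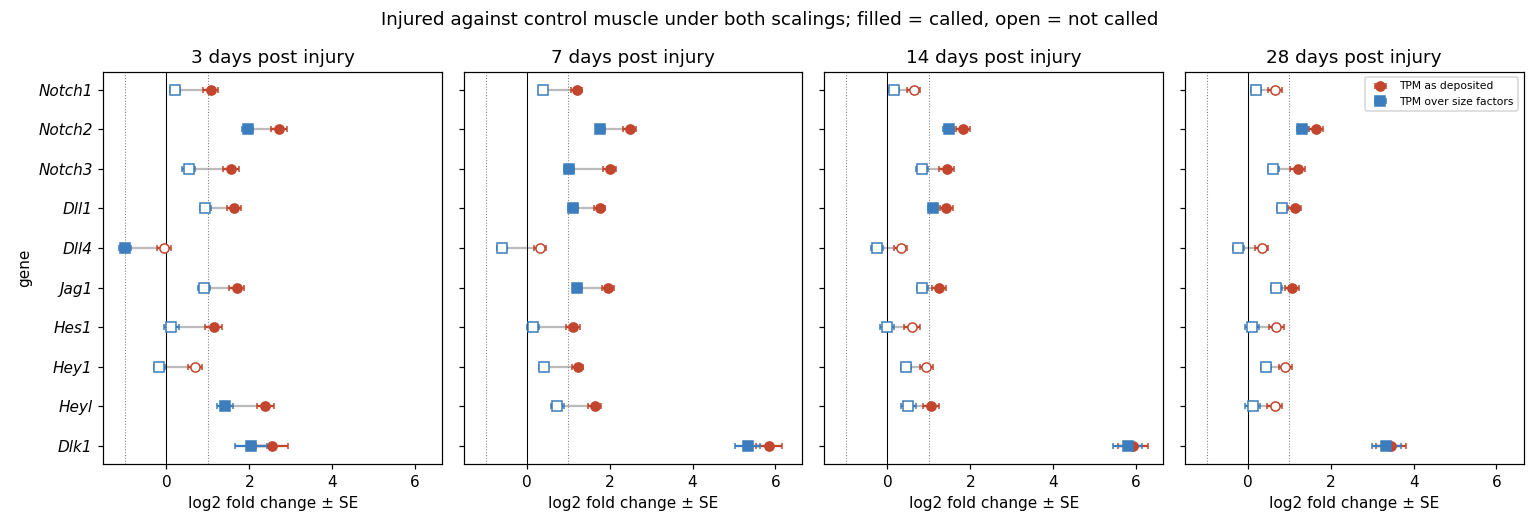
Log2 fold change (± SE, on log2(TPM + 1)) of each of the 10 genes in injured over control muscle on each day, on TPM as deposited (circles) and over size factors (squares), filled where called. Dlk1 and Notch2 lay above 1 on both scales on all 4 days, while Dll4 moved from between −0.07 and 0.33 to between −1.0 and −0.23.

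Dlk1 was also the only member of the group called between successive sampling days in injured non-repaired muscle. It rose between 3 and 7 DPI by 3.29 (SE 0.343, 95% interval 2.61 to 3.97, adjusted p = 7.72e-13) and fell between 14 and 28 DPI by 2.47 on the log2 scale (SE 0.358, adjusted p = 4.4e-06). Between 7 and 14 DPI no member was called and the Dlk1 difference was 0.08. Of all genes tested, 7.34%, 6.82% and 0.459% were called between 3 and 7, 7 and 14, and 14 and 28 DPI. Over all 4 arms of repair and running, injured muscles held between 3.59 and 10.45 TPM of Dlk1 at 3 DPI (median 5.84, n = 24), between 36.21 and 118.95 at 7 DPI (median 77.2, n = 24), between 36.74 and 199.58 at 14 DPI (median 88.2, n = 16) and between 2.54 and 34.53 at 28 DPI (median 12.7, n = 12). The muscles at 3 DPI were thus all below all muscles at 7 and 14 DPI, and those at 28 DPI spread the widest in relation to their median.

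The injured muscles of non-running, non-repaired rats were next compared with contralateral muscles, which removes the difference in rat series. Of the 10 genes, 5, 8, 5 and 2 were called, all higher in injured muscle, at 3, 7, 14 and 28 DPI, where 38.2%, 47.4%, 21.1% and 13.3% of all genes tested were called. At 28 DPI the 2 called were Notch2 (1.25, adjusted p = 1.29e-06) and Dlk1 (3.14, adjusted p = 1.26e-08). The medians of the 10 genes were 0.95, 1.53, 1.00 and 0.74, beside 0.54, 0.91, 0.50 and 0.38 for all genes tested. Notch2 differed by 1.68, 2.23, 1.5 and 1.25 and Dlk1 by 2.27, 5.53, 5.66 and 3.14, called on all 4 days. Heyl was called at 3 DPI (1.97), 7 DPI (1.63) and 14 DPI (1.10) and not at 28 DPI (0.60). After rescaling with size factors Notch2 differed by 1.18, 1.43, 1.12 and 0.94 and was not called at 28 DPI. In all there were then 9 calls in place of 20, beside 34.2%, 31.6%, 14.3% and 8.73% of all genes.

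The contralateral muscles themselves held 0.28 to 1 TPM of Dlk1 (median 0.465, n = 34 over all arms and days), 1.13 to 5.84 TPM of Notch2 (median 1.99) and 2.09 to 5.1 TPM of Heyl (median 3.50). Only the contralateral muscles of non-running, non-repaired rats (2, 4, 2 and 2 at 3, 7, 14 and 28 DPI) were tested against control. In them 1 member was called, Notch2 at 3 DPI, at 3.91 and 2.87 TPM in 2 rats (log2 difference 1.04, SE 0.211, adjusted p = 7.66e-05). In this arm no member was called at 7, 14 or 28 DPI, where 2, 1 and 0 members had an unadjusted p under 0.05 in limma. On these days 2242, 1666 and 1317 of the 11328 genes tested had such a p. Of all genes tested, 6.43%, 0.803%, 0.715% and 0.185% were called at 3, 7, 14 and 28 DPI. In the 3 other arms, which were not tested against control, the contralateral mean of Notch2 at 3 DPI was 3.31, 3.97 and 4.30 times the control mean, against 2.89 times in the tested arm. The Notch2 call was lost with size factors (2.81% of all genes called at 3 DPI), without the right muscle of control rat 38 (0 calls) and without contralateral rat 10 (0 calls).

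The same comparison with contralateral muscle could be made 14 times over the 4 arms. Dlk1 and Notch2 were called in 14 of 14, Jag1 in 13, Notch3 in 12, Dll1 and Heyl in 11, Hes1 in 7, Notch1 in 6, Hey1 in 1 and Dll4 in 0. The 14 include the 4 just given, and each used its own rats. Dll4 differed by −0.18 to 0.48 in these comparisons. Under size factors the counts were 14 for Dlk1, 12 for Notch2, 5 for Jag1, 4 for Heyl, 2 for Notch3 and 0 for the others, and all 14 differences of Dll4 were then below 0, between −0.63 and −0.05. Dlk1 spanned 2.01 to 6.42 over the 14 comparisons, and 1.5 to 6.14 with size factors. In non-running rats with a graft 6, 8, 7 and 6 members were called at 3, 7, 14 and 28 DPI, beside 44%, 46.2%, 26.1% and 19.1% of all genes. In running non-repaired rats 6, 9 and 6 were called at 3, 7 and 14 DPI, beside 40.1%, 43.1% and 26.3%, and in running rats with a graft 7, 8 and 6, beside 44.9%, 44.3% and 24.2%. The shares of all genes called with size factors in these 3 arms were 37.5%, 34.9%, 19.5% and 13% for the graft, 36.9%, 34.4% and 18.6% for running and 39.4%, 33% and 19.1% for running with a graft. At 28 DPI running rats had no contralateral muscle that could be used.

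**Figure D4:**
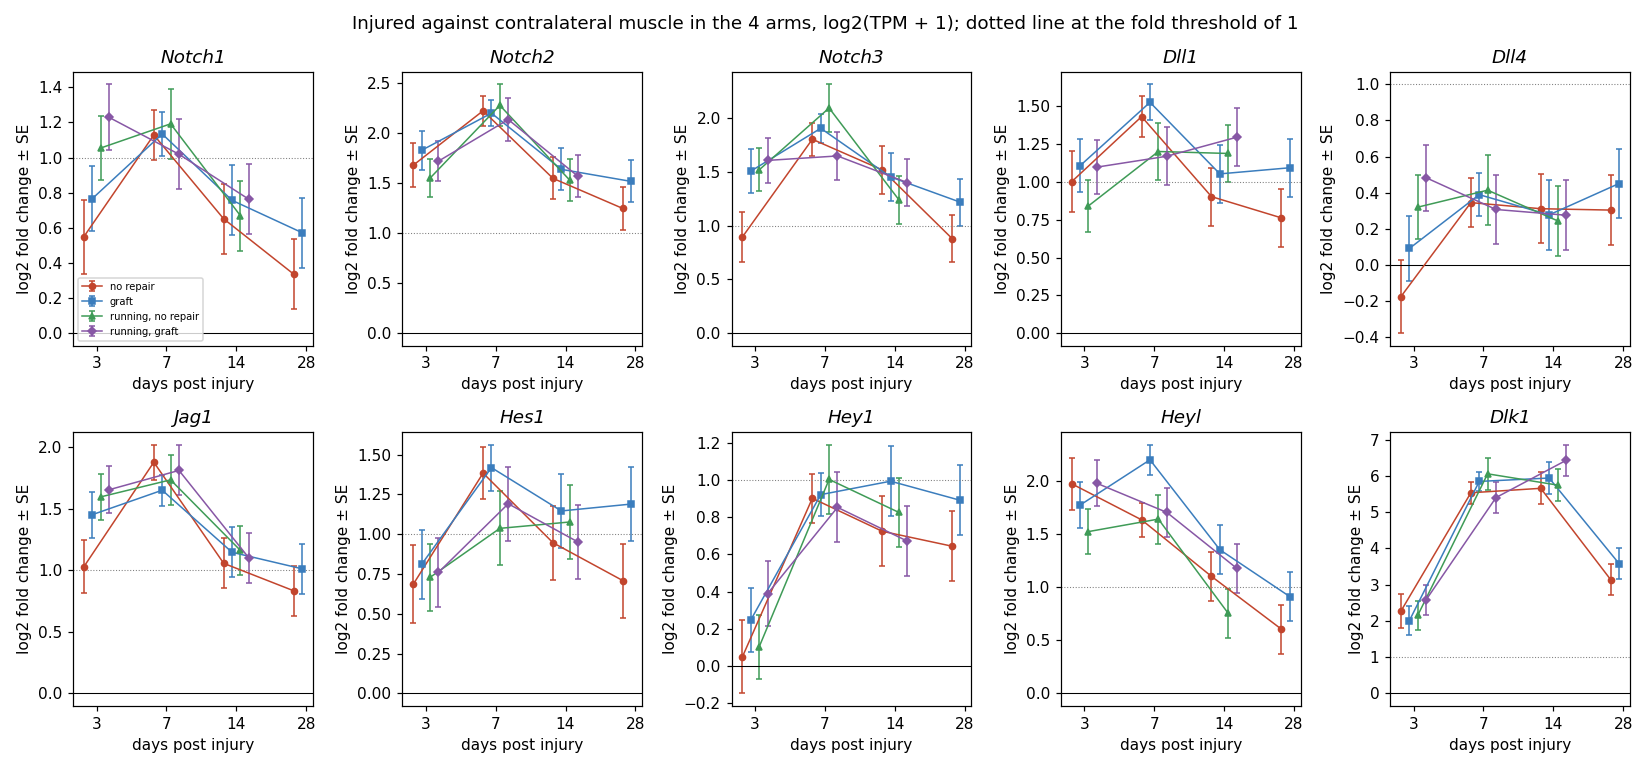
Log2 fold change (± SE, on log2(TPM + 1)) of each of the 10 genes in injured over contralateral muscle against days post injury, with a line for each of the 4 arms of repair and running and a dotted line at the fold threshold of 1. Dlk1 stood between 2.01 and 6.42 and Notch2 between 1.25 and 2.28 in all 14 comparisons, while Dll4 stayed between −0.18 and 0.48.

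Within the 34 rats with both muscles, the injured muscle had the higher TPM in all 34 for Notch1, Notch2, Notch3, Dll1, Jag1, Hes1, Heyl and Dlk1, in 32 for Hey1 and in 30 for Dll4. Of all genes tested, 49.2% were higher in all 34 rats on this scale. After rescaling with size factors the injured muscle was higher in all 34 rats for Notch2, Notch3, Dll1, Jag1 and Dlk1, as for 23.9% of all genes tested, in 33 for Heyl, 31 for Hes1, 30 for Notch1, 20 for Hey1 and 3 for Dll4. The median within-rat log2 difference of Dlk1 was 2.40, 5.84, 5.88 and 3.64 at 3, 7, 14 and 28 DPI.

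The minced graft was compared with no repair in injured muscle of non-running rats. No member was called on any day, with 2, 5, 0 and 0 members at an unadjusted p under 0.05 in limma at 3, 7, 14 and 28 DPI. Few genes were called at all, 0.00883%, 0.0883%, 0.0265% and 0% of those tested. The member with the smallest adjusted p was Heyl at 7 DPI. Heyl ranged from 14.94 to 22.9 TPM (median 19.6, n = 8) with the graft and from 8.30 to 14.68 TPM (median 11.1, n = 8) without it, so that the groups did not overlap. The log2 difference of Heyl was 0.75 (SE 0.133, 95% interval 0.48 to 1.01, adjusted p = 0.000172), under the fold threshold, and it was −0.04, 0.36 and 0.18 at 3, 14 and 28 DPI. With all libraries kept, including those with few symbols, the Heyl difference at 7 DPI was 1.07 and was called. That setting added libraries with few symbols to the non-repaired group only. There 8 of 11 libraries had passed the limit, against 8 of 8 with the graft. In running rats at 7 DPI Heyl ranged from 10.15 to 22.72 TPM with the graft (n = 4) and from 9.91 to 13.72 TPM without (n = 4), and these groups overlapped.

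Over the 10 genes the graft difference ran from −0.13 to 0.52 at 3 DPI and 0.14 to 0.75 at 7 DPI. It ran from 0.03 to 0.54 at 14 DPI and 0.09 to 0.29 at 28 DPI. Above 0 were 8, 10, 10 and 10 of the 10 genes. Their medians were 0.27, 0.24, 0.21 and 0.19, beside 0.14, 0.11, 0.12 and 0.07 for all genes tested. The widest intervals were those of Dlk1. Dlk1 differed by −0.13 (95% interval −0.83 to 0.56) at 3 DPI, 0.23 (−0.28 to 0.73) at 7 DPI, 0.54 (−0.17 to 1.25) at 14 DPI and 0.23 (−0.49 to 0.94) at 28 DPI. A difference in Dlk1 of more than 1 on the log2 scale at 14 DPI thus lies inside its interval. The test of whether the injury effect against contralateral muscle differed between graft and no repair called no member, and 0, 1, 0 and 0 members had an unadjusted p under 0.05. So did 237, 1308, 100 and 63 of the 11328 genes tested. For Heyl at 7 DPI this difference of effects was 0.56 (adjusted p = 0.415). No gene among all those tested was called in it, and with size factors 1, 0, 1 and 0 genes were.

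Running was compared with not running in injured muscle, averaged over graft and no repair. No member was called, with 3, 2, 0 and 3 at an unadjusted p under 0.05 in limma, and 0.0177%, 0%, 0% and 0.309% of all genes tested were called at 3, 7, 14 and 28 DPI. An unadjusted p under 0.05 was found for 1815, 1786, 586 and 1553 of the 11328 genes tested. Notch2 was at a group-averaged 17.2 TPM in running and 14.9 TPM in non-running rats at 3 DPI (log2 difference 0.21, adjusted p = 0.307). At 28 DPI Dlk1 was at 8.49 TPM in 4 running and 17.1 TPM in 8 non-running rats, a difference of −0.67 (95% interval −1.29 to −0.05, adjusted p = 0.31). The interval for Dlk1 reaches past 1 on the log2 scale. With 1 of the injured non-running grafted muscles at 28 DPI left out, that of rat 75, 1 member was called instead of 0.

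The other genes of the pathway were counted over lists of 47 tested genes. Against control there were 78 calls, 77 of them higher, in 188 tests of a gene on a day (41.5%), close to the 36.9% among all genes over the same days. With size factors there were 38 calls, 27 higher and 11 lower, in 192 tests (19.8%, beside 28.5% of all genes), and without the right muscle of control rat 38 there were 58. These totals are near or below the background of the table. The counts of each list can be read against the 52.6%, 48.1%, 25.5% and 21.3% of all genes called at 3, 7, 14 and 28 DPI, and 41.4%, 36.1%, 21.7% and 14.7% with size factors.

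Genes that process receptors, such as the proteases and glycosyltransferases, had 11, 11, 6 and 4 of 14 higher at 3, 7, 14 and 28 DPI, with median differences of 1.78, 1.52, 0.94 and 0.85. Under size factors this list had 5, 2, 2 and 0 higher, and 2 and 1 lower at 3 and 7 DPI. Inhibitors of the pathway had 6, 5, 3 and 4 of 7 higher, and 3, 2, 2 and 2 with size factors. Genes of the nuclear complex had 3, 3, 1 and 1 of 11 higher, and 2, 1, 0 and 0 with size factors. Genes for ligand endocytosis had 2 of 6 higher on each day and 1 lower at 3 DPI. The balance of the endocytosis list reversed under size factors, with 0, 1, 1 and 0 higher, 3, 3, 2 and 0 lower, and a median of −1.09 at 3 DPI in place of −0.02. Other receptors and ligands had 1, 3, 1 and 0 of 4 higher and none with size factors. Other target genes had 1, 2, 2 and 1 of 5 higher, and 1 of 6 on each day with size factors.

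Of these genes the largest differences at 3 DPI, among those called on all 4 days, were in Lfng, Numbl and Dtx4. Lfng, a glycosyltransferase that modifies Notch receptors, had a mean of 56.3 TPM at 3 DPI against 2.83 TPM in control (log2 difference 3.90, SE 0.21, adjusted p = 2.87e-30), and the difference was 2.64, 1.70 and 1.40 at 7, 14 and 28 DPI. Numbl, a relative of the Notch antagonist Numb, was at 28.3 against 1.07 TPM (3.81, adjusted p = 3.87e-28) and differed by 3.73, 2.89 and 2.29 later. Dtx4, a Deltex ubiquitin ligase, was at 23.4 against 0.885 TPM (3.70, adjusted p = 7.6e-32). With size factors the differences at 3 DPI were 2.92 for Lfng, 3.02 for Numbl and 2.95 for Dtx4, all called. Neurl1, a ubiquitin ligase of the ligand endocytosis list, was the only gene of the lists called lower on TPM as deposited, at 32.7 TPM against 69.5 TPM at 3 DPI (−1.15, SE 0.264, adjusted p = 5.23e-05).

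The summed TPM of marker lists of the cell types in muscle moved with the injury too, and their part in the results above was not tested. Counts of called markers can be read against the 52.6%, 48.1%, 25.5% and 21.3% of all genes called at 3, 7, 14 and 28 DPI. With size factors these shares were 41.4%, 36.1%, 21.7% and 14.7%. The summed TPM of 10 of 10 satellite cell and myoblast markers ranged from 52.8 to 91.8 in control muscle and from 791 to 940, 298 to 685, 237 to 346 and 246 to 367 in injured muscle at 3, 7, 14 and 28 DPI, none of them at 0. Myogenin (Myog), which marks differentiating myoblasts, went from a mean of 5.1 TPM in control to 483 TPM at 3 DPI. The mean sum of the list at 3 DPI was 866 TPM, so Myog alone carried much of it. With size factors 7, 7, 6 and 4 of the 10 markers were called higher at 3, 7, 14 and 28 DPI. The 11 endothelial markers in the table summed to 76.1 to 159 TPM in control muscle and to 271 to 402 TPM at 3 DPI and 275 to 455 TPM at 7 DPI, and 7, 8, 4 and 3 of the 11 were called higher at 3, 7, 14 and 28 DPI. With size factors 1 of the 11 was called higher and 1 lower at 3 DPI. The 8 mural markers summed to 104.1 to 222 TPM in control muscle and to 342 to 523 TPM at 3 DPI, with 4 of 8 called higher, and with size factors 2 higher and 2 lower. These mural counts were near the shares of all genes. The 9 leukocyte markers in the table went from a sum of 42.3 to 57.6 TPM, with Ms4a1 listed at 0, to between 1873 and 2964 TPM at 3 DPI. Fibroadipogenic markers summed to 137.9 to 512 TPM in control muscle and 4526 to 7541 TPM at 3 DPI, and proliferation markers to 20.6 to 34.5 and 260 to 353 TPM. On both scales 8 of 9 fibroadipogenic and 7 of 7 proliferation markers were called higher at 3 DPI. Schwann cell markers summed to 7.59 to 12.8 and 14.6 to 51.8 TPM, and adipocyte markers to 92.1 to 325 and 908 to 1219 TPM. Of each of these lists 2 of 4 tested genes were called higher at 3 DPI, and 1 of 4 with size factors, with medians of 0.33 and 0.29, so the sums do not describe every gene of the list. The counts of these lists were near or below the shares of all genes. The 10 adult myofiber markers, the defining genes of the tissue, held 199194 to 250800 TPM in control muscle and 38193 to 52814 TPM at 3 DPI. The endothelial sums were higher on TPM as deposited, and with size factors the median difference of the endothelial markers at 3 DPI was −0.018. How the Dll4 values of 3.26 to 4.84 TPM at 3 DPI relate to these markers was not tested.

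The genes with the pattern most like each member were named by Pearson correlation of log2(TPM + 1) across the 114 muscles. This is a description over muscles that share the injury contrast, the days and the rats. Dlk1 was most like Itm2a (0.966), C1qtnf3 (0.956) and Klk1 (0.955). Notch2 was most like Lrp1 (0.989), Parva (0.988) and Tm9sf1 (0.987), and Notch3 most like Plxnd1 (0.982). Notch1 was most like Dock6 (0.977), Jag1 most like Fam188a (0.978), Hes1 most like Igfbp7 (0.922), Hey1 most like Afap1l2 (0.910) and Heyl most like Flvcr2 (0.97). Dll4 had the lowest best match, Kank3 (0.786). Dll1 was most like Olfml2a (0.971) and Hes6 (0.970), another Hes-family gene. After the group means were taken out, Dlk1 was most like Mest (0.803), Capn6 (0.762) and Itm2a (0.752), and Dll4 most like Nrarp (0.758) and Notch4 (0.754), 2 other genes of the pathway. Between pairs of the 10 genes the correlation over muscles ran from 0.428 for Notch2 and Dll4 to 0.961 for Notch3 and Jag1.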

How the data were processed

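The authors extracted total RNA from whole tibialis anterior muscles, sequenced it as paired-end reads and quantified transcripts with kallisto against the GenBank-annotated rat build 6.0, per their methods. The deposited values are TPM per gene symbol. The study's count test (DESeq2) needs counts, which were not used here, so the TPM were tested on a log scale. One of 16182 entries of the table was incomplete and left out, and symbols that sort after it were not analysed here. Libraries with fewer than 7000 symbols above 1 TPM were dropped (13), libraries of the same muscle were averaged on TPM, and 9 libraries whose labels contradict each other were placed in no group. No 2 libraries held identical values.

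A group-means model of log2(TPM + 1), pseudocount 1 TPM, was fitted to 114 muscles in 31 groups (83 residual degrees of freedom) with limma 3.58.1 in R 4.3.3, with an intensity trend, for 11328 genes with a mean above 1 TPM in at least 1 group. Benjamini-Hochberg adjustment ran over all genes tested of a comparison. A gene was called at adjusted p under 0.05 and an absolute log2 fold change over 1. The fit was checked on simulated data. Shares within the receptors and ligands were tested within rats by an exact permutation test of signs (SciPy 1.17.1), chosen after the data were seen. Where nothing else is said, p-values measure the spread between muscles, and the control muscles came from only 2 rats.

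Alternatives were a pseudocount of 0.1 TPM, no filter on low values, size factors, all libraries kept, each library as its own sample, only the groups of the comparison, the control muscles averaged by rat, rat number range in the model, the samples without rat 11, the rat as a block, and each muscle of the smaller groups left out in turn. The rat block rests on both muscles of a rat carrying its number in the labels. Deviations of the 36 such pairs from their group means correlated at 0.072 on average (−0.641 to 0.358), against −0.0087 between different rats. Named genes were the 10 members, the other pathway genes called on all 4 days with the 3 largest differences at 3 DPI or among the 3 largest in either direction, and the genes most like each member. The members and lists were chosen with earlier results of these data known. Promoters came from RefSeq for build GRCr8 and were matched by symbol.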

Additional observations from a re-analysis of the deposited data

Results flagged for a closer look

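Over the 10 genes, 160 combinations of gene and group with 4 to 10 muscles were checked for a muscle far from the rest of its group, and 10 were found. The limit used is one that about 1 in 20 would pass by chance if the values were independent and normally distributed. These combinations share muscles, so their own chance rate is not known. In control muscle the right muscle of rat 38 was low for Notch3 (4.01 TPM, the others 5.55 to 5.77) and Hey1 (1.02 TPM, the others 3.06 to 3.21). It was also the library with the fewest symbols above 1 TPM of those kept.

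Among injured muscles with a graft in non-running rats, rat 91 was low for Notch1 at 3 DPI (5.55 TPM, the others 7.86 to 8.52) and 1 rat was high at 14 DPI for Notch1 (6.23 TPM, the next 4.71) and Notch2 (10.02 TPM, the next 7.33). Rat 23 held 27.85 TPM of Hes1 at 7 DPI, and the next of its group 19.12. In running rats at 7 DPI, rat 8 was low for Dll4 with a graft (4.89 TPM, the others 6.47 to 6.55) and rat 31 was high for Dll4 without (8.36 TPM, the next 5.2). Among the 4 contralateral muscles of non-running, non-repaired rats at 7 DPI, 1 was low for Dll4 (2.89 TPM, the other 3 between 4.46 and 4.66) and another was high for Dlk1 (0.68 TPM, the other 3 between 0.43 and 0.46). Over the contralateral muscles of all arms at 7 DPI, Dll4 ran from 2.89 to 5.48 TPM and Dlk1 from 0.28 to 0.68 TPM.

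The level of Dlk1 in injured non-repaired muscle differed between sampling days, by a log2 difference of 3.29 between 3 and 7 DPI and −2.47 between 14 and 28 DPI, both called in limma.

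The 9 libraries that were placed in no group also held the genes above the highest control muscle. This was so in 4 libraries for Notch1, 7 for Notch2, 8 for Notch3, 5 for Dll1, 4 for Dll4, 6 for Jag1, 4 for Hes1, 9 for Hey1, 5 for Heyl and 8 for Dlk1. The highest of them reached 5.64 TPM for Notch1, 5.77 for Notch2, 17.36 for Notch3, 3.72 for Dll1, 8.09 for Dll4, 5.54 for Jag1, 13.62 for Hes1, 7.49 for Hey1, 7.55 for Heyl and 25.37 for Dlk1.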

How the results depend on the processing

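Calls are numbers of the 10 genes called, summed over days. With size factors they were 14 against control (28 on TPM as deposited), 9 against contralateral muscle (20), 28 in the other 3 arms (69) and 0 in contralateral muscle against control (1), and the other pathway genes had 38 (78). The contralateral count was 2 at a pseudocount of 0.1 TPM and 0 with all libraries kept or only the groups of the comparison. With all libraries kept, graft against no repair gave 1 (0). Of 84 counts under another setting 75 stayed within 1.5 times, and of 211 with a muscle left out 207 did. Leaving out each of 71 muscles in turn gave 20 to 29 calls against control, 18 to 21 against contralateral muscle, 65 to 71 in the other 3 arms, 0 to 2 in contralateral muscle against control, 0 to 1 for running, and 58 to 87 for the other pathway genes.

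With size factors the log2 difference changed sign for Dll4 against control (−0.60, −0.26 and −0.23 at 7, 14 and 28 DPI) and contralateral muscle (−0.57, −0.25 and −0.092), for Hey1 at 3 DPI (−0.17 and −0.42), Hes1 at 14 DPI against control (−0.003), Notch1 at 28 DPI against contralateral muscle (−0.037), and for graft against no repair in Dll1 (−0.052) and Hes1 (−0.14) at 3 DPI and Dll4 (−0.090) at 14 DPI. Size factors differ from TPM by removing the median shift of all genes. Leaving out a muscle turned small differences: Dll4 against control at 3 DPI (−0.22 to 0.059), Hey1 against contralateral muscle at 3 DPI (−0.020 to 0.11), and for graft against no repair Heyl (−0.14 to 0.012), Dlk1 (−0.40 to 0.21), Dll1 (−0.047 to 0.21) and Hes1 (−0.064 to 0.072) at 3 DPI, Dll4 at 14 DPI (−0.012 to 0.091), and Notch3 (−0.0039 to 0.33), Dlk1 (−0.20 to 0.93) and Hey1 (−0.025 to 0.24) at 28 DPI. Leaving out a rat turned the Notch3 share difference at 7 DPI (−1.02 to 0.0932 points) and 14 DPI (−0.60 to 0.837), and no other share changed direction or call, also with all libraries kept, where 1 rat with a library listing these genes at 0 was dropped.

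The rat as a replicate block (within-rat correlation 0.026) left 28 calls against control and changed no member's call. The reads behind the TPM are unknown, so the precision of low values such as Dlk1 in control muscle cannot be stated.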

Other observations

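The 9 libraries in no group belong to 5 rats. For 4 running, non-repaired rats at 28 DPI (rats 77 to 80), the library titled as the control side is labelled as injured and the library titled as injured is labelled as not injured. Libraries with the control-side title held 5.68, 5.97, 7.24 and 25.37 TPM of Dlk1 and 4.2, 5.42, 5.21 and 5.77 TPM of Notch2. Libraries with the injured title held 0.43, 0.38, 0.28 and 0.34 TPM of Dlk1 and 2.18, 1.73, 1.48 and 1.32 TPM of Notch2. No group was inferred from these values. A contralateral library of rat 11, labelled day 3 while the other libraries of that rat are labelled day 7, held 0.29 TPM of Dlk1 and 2.72 TPM of Notch2.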
